A study of Homo sapiens with 12 samples.

Results

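The 10 genes described here mark or drive the epithelial-mesenchymal transition, and were followed in KYSE150 and KYSE510, which are cell lines established from esophageal squamous cell carcinomas. They were chosen by name (CDH1, EPCAM, CDH2, VIM, FN1, ZEB1, ZEB2, SNAI1, SNAI2 and TWIST1) from the 38516 genes of the table, and 10 of 10 names were found. Each line was sequenced as RNA in 3 control libraries and 3 libraries with silenced HCP5, a gene for a long non-coding RNA, so that 4 groups of 3 libraries were compared. Cells of all groups were grown in RPMI-1640 medium with serum, and the labels name no other allele or agent. The library titles start with "sh". The reagent used for silencing, the reagent given to control cells, the time after its delivery and whether replicates were separate cultures are not given in the sources used here, so p-values measure the spread between these libraries, which may be technical.

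In the epithelial-mesenchymal transition, cells held together by adherens junctions loosen them and take on a motile, matrix-producing form. The switch is driven by transcription repressors of the SNAI (snail), ZEB and TWIST families, which bind short E-box words in promoters, among them that of CDH1, and it is strongly promoted by TGF-beta signalling. Carcinoma cells often hold a mixture of epithelial and mesenchymal features, and SNAI2 is also a normal gene of the basal layer of squamous epithelium.

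Both lines read as squamous epithelium. Of 11 squamous markers, 10 had a mean of at least 1 RPKM (reads scaled to exon length and library depth) in every group (SOX2 did not in KYSE150, nor PKP1 in KYSE510), and their summed level was 1000 to 2970 RPKM across libraries. Of 11 fibroblast markers, 0 reached 1 RPKM in KYSE150 and only FAP did so in KYSE510. Among 8 leukocyte markers only CD68 reached it in any group. Of 7 endothelial markers CDH5 did so in both KYSE510 groups, and of 6 smooth muscle and pericyte markers ACTA2 did so in KYSE510 controls. Depth was 20035025 to 28202422 reads per library, and every silenced KYSE150 library (26281327 to 28202422) was deeper than every KYSE150 control (20035025 to 22700935). HCP5 itself was lower in the silenced library of each of the 6 same-numbered pairs. It stood at 0.779, 0.745 and 0.786 RPKM in KYSE150 controls against 0.315, 0.418 and 0.579 in silenced libraries. In KYSE510 it stood at 0.914, 1.85 and 1.40 RPKM against 0.505, 0.951 and 0.948, where the groups overlapped. HCP5 changes of -0.45 (SE 0.20) and -0.53 (SE 0.20) on the log2 scale did not pass limma's test (adjusted p = 0.267 and 0.646). The mean of both changes was -0.49 (SE 0.14; limma adjusted p = 0.185, or 0.0295 with the replicate number as a block). These log2 changes are of RPKM + 0.5, which compresses low genes such as HCP5. In depth-scaled reads, silenced over control, HCP5 stood at 0.569 in KYSE150 (exact 95% interval 0.442 to 0.730, counting error only). In KYSE510 this ratio was 0.570 (0.472 to 0.686). The exons of HCP5 share 62 bases with MICA and 157 bases with XXbac-BPG181B23.6.

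RefSeq promoter windows (GRCh38.p14) were on hand for 5 of the 10 genes: ZEB1, ZEB2, VIM, FN1 and CDH2, with 12 windows of 250 bases before their starts. The E-box word searched was CAGGTG or its reverse complement CACCTG, the letters that SNAI and ZEB proteins are known to bind. It occurred in 2 of the 12 windows, against 17.5% of all 35116 windows of this length in the RefSeq table. Both were windows of ZEB1, which had 7 of the 12. A match is a description of the letters and not a binding site. The stretches before the first ZEB1 start (chr10:31318167-31318416, plus strand), the VIM start (chr10:17227991-17228240, plus strand) and the FN1 start (chr2:215436173-215436318, minus strand, limited to the 146 bases outside the exons of FN1) are shown because ZEB1 and VIM were higher in the same line, whereas FN1 was higher in the other and, beside SNAI2, differed most with silencing on the log2(RPKM + 0.5) scale. Capitals mark the E-box word, which begins 57 bases before the ZEB1 start, and the other stretches are all in lower case because the word was not in them.
ZEB1: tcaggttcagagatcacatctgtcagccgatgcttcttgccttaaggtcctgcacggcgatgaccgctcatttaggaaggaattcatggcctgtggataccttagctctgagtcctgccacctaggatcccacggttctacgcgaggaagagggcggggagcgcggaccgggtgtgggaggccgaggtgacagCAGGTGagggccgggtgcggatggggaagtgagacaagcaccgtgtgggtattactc
VIM: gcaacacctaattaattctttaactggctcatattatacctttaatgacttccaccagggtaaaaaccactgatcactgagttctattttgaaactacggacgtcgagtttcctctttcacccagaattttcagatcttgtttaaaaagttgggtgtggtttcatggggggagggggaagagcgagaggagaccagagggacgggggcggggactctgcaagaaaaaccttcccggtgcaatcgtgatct
FN1: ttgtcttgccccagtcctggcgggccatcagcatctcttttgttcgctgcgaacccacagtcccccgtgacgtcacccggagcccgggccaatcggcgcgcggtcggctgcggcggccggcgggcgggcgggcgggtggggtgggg
The letters CG occur 15 times in the ZEB1 window and 8 times in the VIM window, against a median of 11 over all windows, and 19 times in the 146 bases shown for FN1.

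The order of the genes by RPKM, a scale per exon length, began alike in both lines and then diverged. In KYSE150 controls the means ran from EPCAM (89.6) through CDH1 (31.9), SNAI2 (19.4), TWIST1 (3.69), FN1 (2.60), ZEB1 (0.501) and VIM (0.424) to SNAI1 (0.00963), CDH2 (0.00953) and ZEB2 (0). Libraries of neighbouring genes overlapped for ZEB1 and VIM and for SNAI1 and CDH2, and for no other neighbours above ZEB2. In KYSE510 controls the means ran from EPCAM (197.2) through CDH1 (20.7), FN1 (5.39), CDH2 (4.78), SNAI2 (3.38), SNAI1 (0.494), ZEB2 (0.0669), ZEB1 (0.0445) and VIM (0.0122) to TWIST1 (0.00682). Here FN1 overlapped with CDH2, ZEB2 with ZEB1, and VIM with TWIST1. The epithelial genes thus headed both lists, KYSE150 held more SNAI2 and TWIST1, and KYSE510 more CDH2 and SNAI1.

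**Figure D1:**
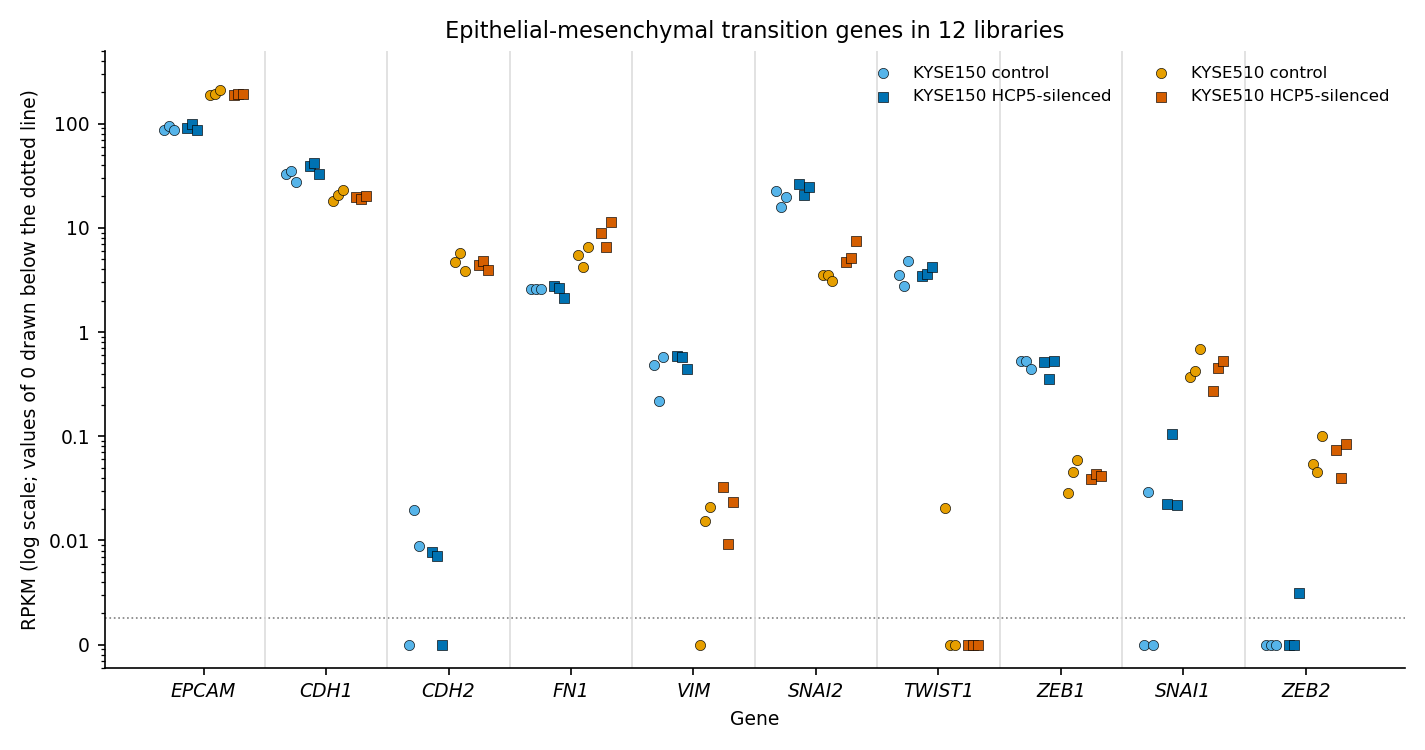
RPKM of the 10 genes in each of the 12 libraries, on a log axis, with values of 0 drawn below the dotted line; circles are control and squares HCP5-silenced libraries, blue for KYSE150 and orange for KYSE510. CDH2 and ZEB2 lie near 0 in all 6 KYSE150 libraries and TWIST1 and VIM near 0 in all 6 KYSE510 libraries, while control and silenced points of a line lie close together.

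The comparison of the control libraries asks how the lines differed without silencing. Counts of genes past the threshold (limma, Benjamini-Hochberg adjusted p under 0.05) are read against the whole table: 62.0% of the 17823 genes tested differed between the control lines, 28.3% higher in KYSE510 and 33.7% higher in KYSE150. Of the 8 genes in this set that passed the filter (at least 0.5 RPKM in at least 3 libraries), 8 differed, 3 higher in KYSE510 (CDH2, FN1 and EPCAM) and 5 higher in KYSE150 (CDH1, VIM, ZEB1, SNAI2 and TWIST1). CDH2, VIM, ZEB1 and TWIST1 reached 0.5 RPKM in only 1 of the lines and so had to differ. This leaves nothing to be read from that count or from the adjusted p of these genes, which are given below as a description. SNAI1 and ZEB2 failed the filter. In a fit with no filter, where 34.3% of genes differed, both were higher in KYSE510, with limma adjusted p = 0.00028 for SNAI1 and 0.00493 for ZEB2. The exact two-sided permutation test of 3 against 3 libraries gave p = 0.1 for each of the 10 genes, the smallest it can give. In bulk RNA, fewer cells expressing a gene and less RNA per cell cannot be told apart.

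Among the junction and surface proteins, E-cadherin and EpCAM differed in opposite directions. CDH1 encodes E-cadherin, the adhesion protein of epithelial adherens junctions (chromosome 16, 68737225 to 68835548, plus strand, GRCh38). Its RPKM was 32.9, 35.5 and 27.2 in KYSE150 controls and 18.2, 20.8 and 23.0 in KYSE510 controls, without overlap. The log2 difference, KYSE510 minus KYSE150, was -0.61 (SE 0.12; limma adjusted p = 0.00101). CDH1 shares 5.62% of its exon bases on the opposite strand with RP11-354M1.2, which stood at 39.4 to 98 RPKM over the libraries. The use of strand in counting is not given in the sources used here, so reads of this partner cannot be told apart. EPCAM, an epithelial adhesion and signalling protein of the cell surface (chromosome 2, 47345158 to 47387601, plus strand), stood at 87.3, 95.3 and 86.1 RPKM in KYSE150 and 189.9, 193.3 and 208.6 in KYSE510. All KYSE510 controls were above all KYSE150 controls, and the difference was 1.14 (SE 0.07; limma adjusted p = 1.37e-07), or 2.21-fold in summed reads. CDH2 encodes N-cadherin, the cadherin often gained when E-cadherin is lost (chromosome 18, 27950966 to 28177446, minus strand). It had 3 reads in all KYSE150 controls together and 1808 in KYSE510 controls, where its RPKM was 4.71, 5.74 and 3.88. The ratio of depth-scaled reads was 496 (exact 95% interval 169 to 2408, counting error only), and the log2 difference was 3.36 (SE 0.13; limma adjusted p = 1.66e-09). CDH2 shares 2.75% of its exon bases on the opposite strand with AC015933.2, which stood at 0 to 2.97 RPKM over the libraries. The line with the higher CDH2 was thus the line with the lower CDH1, yet its CDH1 remained above its CDH2 in every control library.

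The structural and matrix genes did not share a direction. VIM encodes vimentin, the intermediate filament of mesenchymal cells (chromosome 10, 17228259 to 17237593, plus strand). It was low in KYSE150 controls, at 0.484, 0.217 and 0.572 RPKM, and at 0, 0.0153 and 0.0211 in KYSE510 controls. These values rest on 140 and 5 reads, a ratio of 34.0 in favour of KYSE150 (exact 95% interval 14.2 to 106.4, counting error only), with a log2 difference of -0.83 (SE 0.15; limma adjusted p = 0.000444). VIM shares exon bases on the opposite strand with VIM-AS1 (12.4% of its length) and RP11-124N14.3, and the use of strand in counting is not given in the sources used here, so reads of such partners cannot be told apart. FN1, the matrix glycoprotein fibronectin (chromosome 2, 215360440 to 215436172, minus strand), stood at 2.59, 2.61 and 2.61 RPKM in KYSE150 controls and 5.45, 4.21 and 6.50 in KYSE510 controls. It was higher in KYSE510 by 0.91 (SE 0.19; limma adjusted p = 0.00129). Fibroblast markers summed to 0.13 to 0.163 RPKM in KYSE150 controls and 1.79 to 2.43 in KYSE510 controls, where PDGFRA and THY1 were at 0. Endothelial markers summed to 0.101 to 0.171 and 1.42 to 2.45 RPKM in these groups. The part of these markers in the differences of FN1 and CDH2 was not tested.

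The transcription factors divided between the lines. SNAI2, the repressor Slug (chromosome 8, 48917690 to 48921740, minus strand), stood at 22.4, 15.9 and 19.8 RPKM in KYSE150 controls and 3.498, 3.52 and 3.11 in KYSE510 controls. Its log2 difference was -2.35 (SE 0.17; limma adjusted p = 3.37e-07). TWIST1, a basic helix-loop-helix factor (chromosome 7, 19020991 to 19117672, minus strand), stood at 3.51, 2.78 and 4.77 RPKM in KYSE150 controls, whereas KYSE510 controls held 1 read in all. The ratio of 582 in favour of KYSE150 has an exact 95% counting interval from 104 to 23030. ZEB1, a zinc-finger repressor of CDH1 (chromosome 10, 31318495 to 31529814, plus strand), was low in both lines, at 0.531, 0.529 and 0.443 RPKM in KYSE150 and 0.0288, 0.0457 and 0.0588 in KYSE510. Its ratio was 11.1 in favour of KYSE150 (interval 7.57 to 16.7), and limma gave an adjusted p of 3.26e-05 for ZEB1 and 1.71e-08 for TWIST1. The other repressor of each family went the other way. SNAI1, the repressor Snail (chromosome 20, 49982999 to 49988886, plus strand), had 1 read in KYSE150 controls and 65 in KYSE510 controls, where its RPKM was 0.370, 0.422 and 0.690. ZEB2 (chromosome 2, 144384081 to 144524583, minus strand) had 0 reads in KYSE150 controls and 124 in KYSE510 controls (0.0544, 0.0451 and 0.101 RPKM). Against a floor of 3 reads over the group, ZEB2 was at least 34.0-fold higher in KYSE510, and the exact 95% counting interval of the ratio begins at 27.3. Both remained under 1 RPKM in every library.

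**Figure D2:**
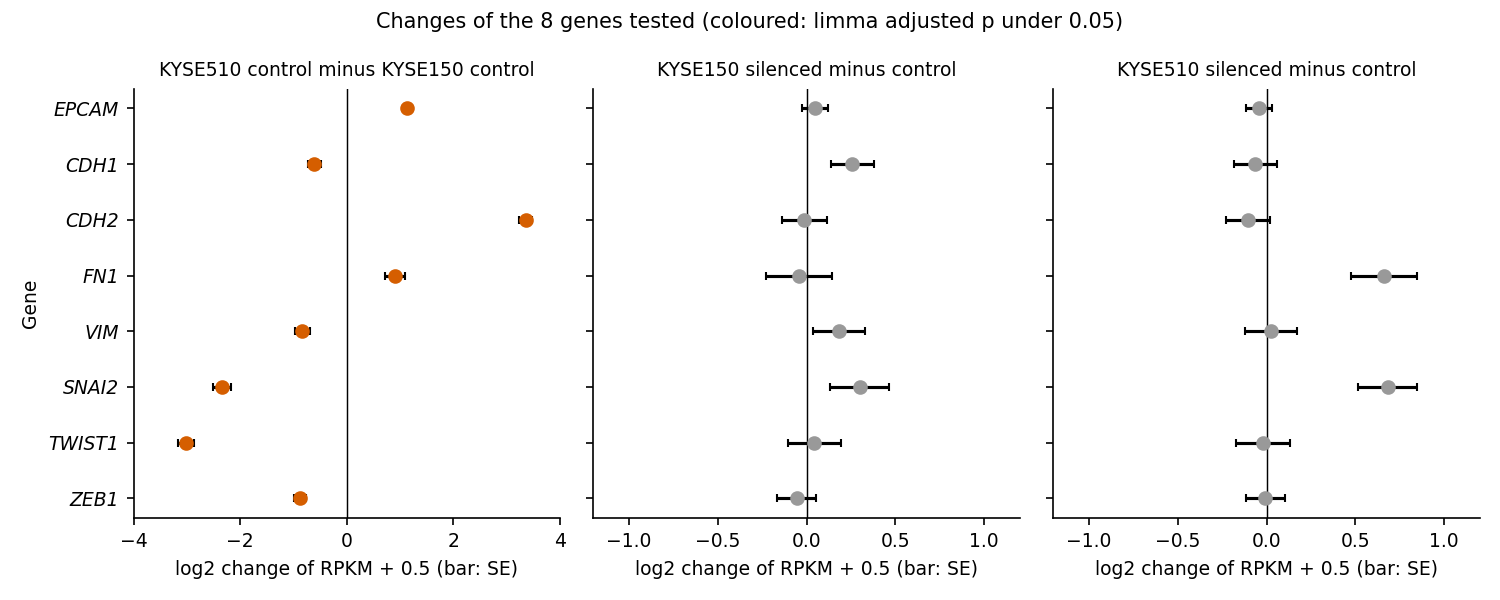
Log2 change of RPKM + 0.5 with its standard error for the 8 genes tested, from the fit to all 12 libraries; the left panel compares control lines on a wider axis than the silencing panels, and colour marks a limma adjusted p under 0.05. All 8 points differ from 0 between lines, none passes with silencing, and SNAI2 and FN1 lie farthest to the right in KYSE510.

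Silencing of HCP5 left no gene of the set past the threshold in KYSE150. Of the 8 tested, 0 were called (limma, adjusted p under 0.05), and 0 had an unadjusted p under 0.05, against 0.499% and 18.1% of all genes. With the replicate number as a block, 0 of the 8 were called, against 6.70% of all genes. In that fit 1 of the 8, CDH1, had an unadjusted p under 0.05, against 5497 of all 17823 genes tested. Control and silenced groups did not overlap for 0 of the 8, against 19.2% of all genes. CDH1, SNAI2 and EPCAM, 3 of the 8, were higher in the silenced library of all 3 same-numbered pairs, which was so, in either direction, for 51.1% of all genes. The silenced libraries of KYSE150 all had more reads than its controls, and the median log2 change of all genes tested was 0.08 (-0.05 after centring each library on its median).

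Of the 8 genes tested, CDH1 and SNAI2 had the largest differences in KYSE150 on the log2(RPKM + 0.5) scale, which compresses low genes, and both were positive. As ratios of depth-scaled reads, silenced over control, they stood at 1.21 and 1.23, and the low gene VIM at 1.25 (exact 95% interval 1.01 to 1.55, counting error only). CDH1 stood at 39.3, 42.0 and 33.1 RPKM in the silenced libraries against 32.9, 35.5 and 27.2 in the same-numbered controls. Each silenced library exceeded its partner by 0.24 to 0.28 on the log2 scale, while the groups overlapped. On the log2 scale CDH1 differed by 0.26 (SE 0.12; limma adjusted p = 0.288, and 0.0652 to 0.678 over the alternatives). SNAI2, a repressor of CDH1, stood at 26.4, 20.53 and 24.5 RPKM against 22.4, 15.9 and 19.8, also higher in each pair. Its log2 change was 0.30 (SE 0.17; limma adjusted p = 0.364). EPCAM at 91.2, 99.5 and 87.0 RPKM was within 0.02 to 0.06 of its partners on the log2 scale, and its change of 0.05 (SE 0.07) turned to -0.08 after centring.

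The mesenchymal genes of KYSE150 differed by less than the spread between libraries. VIM stood at 0.583, 0.577 and 0.446 RPKM in the silenced libraries, of which 1 lay below its control partner, and its log2 change was 0.18 (SE 0.15; limma adjusted p = 0.526). FN1 stood at 2.79, 2.67 and 2.13 RPKM around controls of 2.59, 2.61 and 2.61. TWIST1 at 3.44, 3.58 and 4.21 RPKM lay inside the range of its controls. ZEB1 stood at 0.519, 0.353 and 0.527 RPKM, with 2 of 3 silenced libraries below their partners. CDH2 (2 reads in all silenced libraries), ZEB2 (2 reads) and SNAI1 (7 reads) remained at the edge of detection, so that a change of a few-fold was not detectable at this depth. For SNAI1 the ratio of silenced to control reads was 5.44, with an exact 95% counting interval from 0.699 to 245.

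In KYSE510, SNAI2 and FN1 had the largest differences with silencing on the log2(RPKM + 0.5) scale, and neither passed the test over all genes. Of the 8 genes tested, 0 were called (limma, adjusted p under 0.05), against 0.0393% of all genes, and 2 had an unadjusted p under 0.05, against 6.35%. With the replicate block 0 of the 8 were called, against 0.112%. Groups did not overlap for the same 2 genes, against 12.1% of all genes, and 3 of 8 (SNAI2, FN1 and EPCAM) differed in 1 direction in all 3 same-numbered pairs, against 37.8%.

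SNAI2 stood at 4.75, 5.17 and 7.54 RPKM in the silenced KYSE510 libraries against 3.498, 3.52 and 3.11 in the controls. The lowest silenced library was above the highest control, and silenced replicate 3 was farthest from its partner. In summed reads SNAI2 was 1.74-fold higher with silencing (exact 95% interval 1.57 to 1.94, counting error only). The log2 change was 0.68 (SE 0.17; limma adjusted p = 0.305, and 0.134 to 0.66 over the alternatives). Its silenced level remained below that of every KYSE150 library. FN1 stood at 8.83, 6.51 and 11.3 RPKM against 5.45, 4.21 and 6.50. The lowest silenced library (6.512) and the highest control (6.505) were almost equal, and in both groups replicate 2 was lowest and replicate 3 highest. Within pairs the difference was 0.57 to 0.76 on the log2 scale. The log2 change was 0.66 (SE 0.19; limma adjusted p = 0.425, and 0.0583 to 0.978 over the alternatives, the lowest with the replicate block).

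The epithelial genes of KYSE510 were lower in most pairs by small amounts. CDH1 stood at 19.8, 18.9 and 20.3 RPKM in the silenced libraries against 18.2, 20.8 and 23.0, lower in 2 of 3 pairs, with a log2 change of -0.06 (SE 0.12; limma adjusted p = 0.976). EPCAM stood at 189.7, 193.0 and 191.4 RPKM against 189.9, 193.3 and 208.6, and its change was -0.04 (SE 0.07; limma adjusted p = 0.972). CDH2 at 4.38, 4.81 and 3.92 RPKM lay within the range of its controls, with a change of -0.10 (SE 0.13). SNAI1 stood at 0.272, 0.449 and 0.524 RPKM on 49 reads and ZEB2 at 0.0738, 0.0400 and 0.0848 RPKM on 112 reads, both overlapping with their controls. The ratio of silenced to control reads was 0.828 for SNAI1 (interval 0.559 to 1.22) and 0.992 for ZEB2 (0.761 to 1.29). VIM, ZEB1 and TWIST1 rested on 8, 25 and 0 reads in the silenced libraries.

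**Figure D3:**
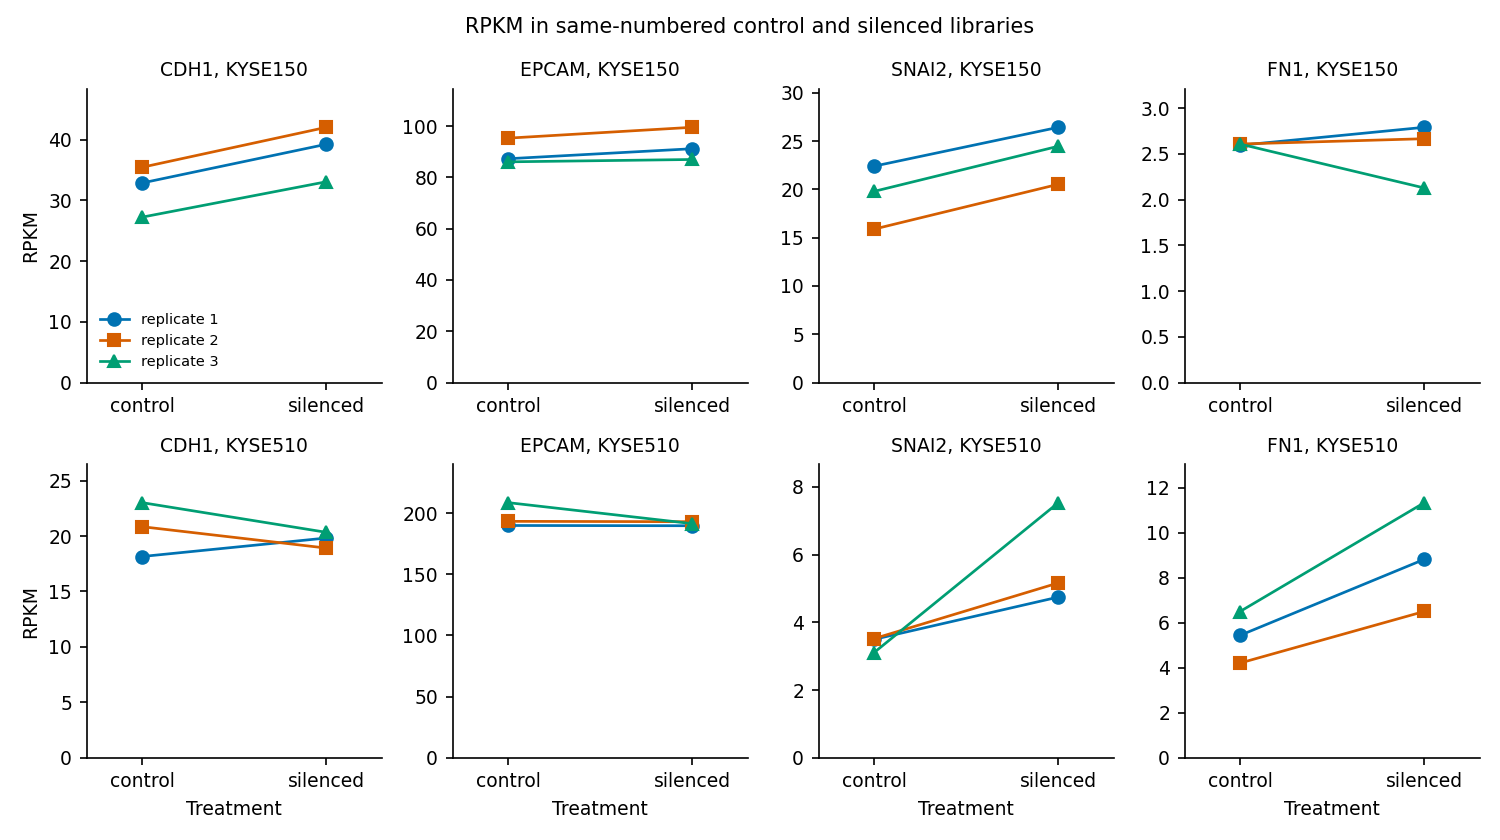
RPKM of CDH1, EPCAM, SNAI2 and FN1 in control and silenced libraries, with each line joining libraries of the same replicate number, KYSE150 above and KYSE510 below; every axis starts at 0. CDH1 and SNAI2 slope upward in 3 of 3 pairs in KYSE150, and SNAI2 and FN1 in 3 of 3 pairs in KYSE510.

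Averaged over the lines, 0 of the 8 genes were called and 2 (SNAI2 and FN1) had an unadjusted p under 0.05, against 0.539% and 11.5% of all genes (limma). SNAI2 was higher in 6 of 6 pairs, by 0.49 (SE 0.12), with a limma adjusted p of 0.117, or 0.0554 with the replicate block. The share of all genes with the same sign in 6 of 6 pairs was not computed. Within a line, 51.1% of all genes in KYSE150 and 37.8% in KYSE510 had the same sign in 3 of 3 pairs. The exact two-sided permutation p of SNAI2 was 0.01, unadjusted, where 0.005 is the smallest possible. Its 400 arrangements within lines did not keep the pairs together, and the share of all genes at such a p was not computed. The 11 squamous markers summed to 1000 to 1690 RPKM in KYSE150 controls and 1270 to 2900 in silenced libraries, and to 1370 to 1910 and 1740 to 2970 in KYSE510, and their part in the difference of SNAI2 was not tested. FN1 was higher in 5 of 6 pairs, by 0.31 (SE 0.13), with limma adjusted p = 0.399. With the replicate block the adjusted p of FN1 was 0.0462, so 1 of the 8 was called, against 2.74% of all genes. The exact permutation p of FN1 was 0.115.

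Whether the lines responded differently was tested as the difference of their changes, KYSE510 minus KYSE150. Of the 8 genes 0 were called and 1, FN1, had an unadjusted p under 0.05, against 0% and 12.2% of all genes (limma), and with the replicate block 0 were called, against 0%. FN1 differed by 0.70 (SE 0.26; limma adjusted p = 0.394, or 0.109 with the block). CDH1 differed by -0.32 (SE 0.17; adjusted p = 0.431) and SNAI2 by 0.38 (SE 0.24; adjusted p = 0.469) in the same limma fit. Over all genes tested this difference had a median of -0.12 (0.04 after centring each library), so CDH1 lies nearer to that median, and FN1 and SNAI2 farther from it, than the values alone show.

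The genes around these 10 were described by 5 lists of known function. Their counts between control lines stand beside 28.3% of all genes tested higher in KYSE510 and 33.7% higher in KYSE150. Each gene named from these lists in the comparison of control lines passed limma's test, with adjusted p from 7.32e-13 to 0.0389. Some listed genes, among them CLDN1, EHF, TWIST2, TGFBI, SPARC and BAMBI, reached 0.5 RPKM in KYSE510 only and so had to differ. Nothing is to be read from the adjusted p of such genes, and the list counts and medians, which include them, are a description. The list of 20 epithelial junction genes had 11 higher in KYSE510 controls and 4 higher in KYSE150, with a median log2 difference of 0.30 against -0.07 for all genes tested. CLDN1, a tight-junction claudin, was at 0.00454 ± 0.00787 RPKM in KYSE150 and 3.36 ± 0.599 in KYSE510 controls (SD, n = 3). NECTIN4, an adhesion protein, was at 0.827 ± 0.106 and 5.15 ± 1.13, and F11R, the junctional adhesion molecule JAM-A, at 12.5 ± 0.767 and 30.5 ± 2.97, though F11R shares 36.6% of its exon bases with RP11-544M22.13. Other tight-junction genes went the other way. TJP1, a scaffold protein, stood at 20.54 ± 3.08 RPKM in KYSE150 and 6.67 ± 0.535 in KYSE510, and MARVELD2 (tricellulin) at 2.95 ± 0.444 and 1.90 ± 0.258.

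Of 16 epithelial regulators, 11 were higher in KYSE510 and 1 in KYSE150 (median 0.66). The transcription factors FOXA1, EHF and ELF3 had the largest differences. FOXA1 stood at 0.430 ± 0.170 RPKM in KYSE150 controls and 9.26 ± 1.37 in KYSE510 controls, EHF at 0.104 ± 0.0865 and 5.53 ± 1.58, and ELF3 at 3.77 ± 0.953 and 38.2 ± 4.72 (SD, n = 3). OVOL2, a repressor of ZEB1, was the gene higher in KYSE150, by 0.27 (limma adjusted p = 0.0389), and its call was lost without KYSE150 control replicates 2 or 3, KYSE510 control replicates 1 or 3 or KYSE510 silenced replicate 3 (adjusted p = 0.112, 0.0775, 0.146, 0.0734 and 0.0513). It was also lost after median centring (0.0645), quantile normalization (0.0837), with voom (0.166), with no filter (0.0576) and with the 6 control libraries alone (0.0836).

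Of 15 other transcription factors of the transition found in the table, 11 were tested, 7 higher in KYSE510 and 3 in KYSE150 (median 0.96). TWIST2, the close relative of TWIST1, had the opposite pattern, with 0 reads in each of the 6 KYSE150 libraries, and 98, 109 and 172 reads (2.17, 2.30 and 3.33 RPKM) in KYSE510 controls. ID1 and ID3, inhibitors of basic helix-loop-helix factors, were higher in KYSE510, ID1 by 5.16 (SE 0.20; limma adjusted p = 2.28e-09) from 1.11 ± 0.340 to 56.6 ± 9.43 RPKM. SOX9, FOSL1 (FRA-1) and ETS1 were higher in KYSE150, with FOSL1 at 164 ± 49.1 RPKM there and 31.4 ± 10.9 in KYSE510 (SD, n = 3).

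The 19 mesenchymal effectors tested included 8 higher in KYSE510 and 6 in KYSE150 (median 0.11). TGFBI, a matrix protein induced by TGF-beta, was at 0.172 ± 0.0571 RPKM in KYSE150 controls and 73.6 ± 1.67 in KYSE510 controls, and SPARC, the matrix protein osteonectin, at 0.0451 ± 0.0171 and 29.5 ± 2.89. The receptor kinase AXL went the other way, at 49.6 ± 4.92 and 5.88 ± 0.691 RPKM, as did PLAU (13.6 ± 4.50 and 3.93 ± 0.951), which shares 31.1% of its exon bases with C10orf55 on the opposite strand. FN1 was thus higher in the same line as TGFBI and SPARC, and SNAI2 and TWIST1 in the same line as AXL and PLAU. Of 16 genes of the TGF-beta pathway, 6 were higher in KYSE510, led by the decoy receptor BAMBI (0.116 ± 0.0122 and 2.98 ± 0.419 RPKM) and the inhibitor SMAD6. The ligands TGFB2 and TGFB1 and the receptor TGFBR2 were among the 5 higher in KYSE150, with TGFBR2 at 11.8 ± 1.45 and 6.13 ± 0.771 RPKM. TGFB2 shares 26.6% of its exon bases with TGFB2-OT1 on the same strand.

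**Figure D4:**
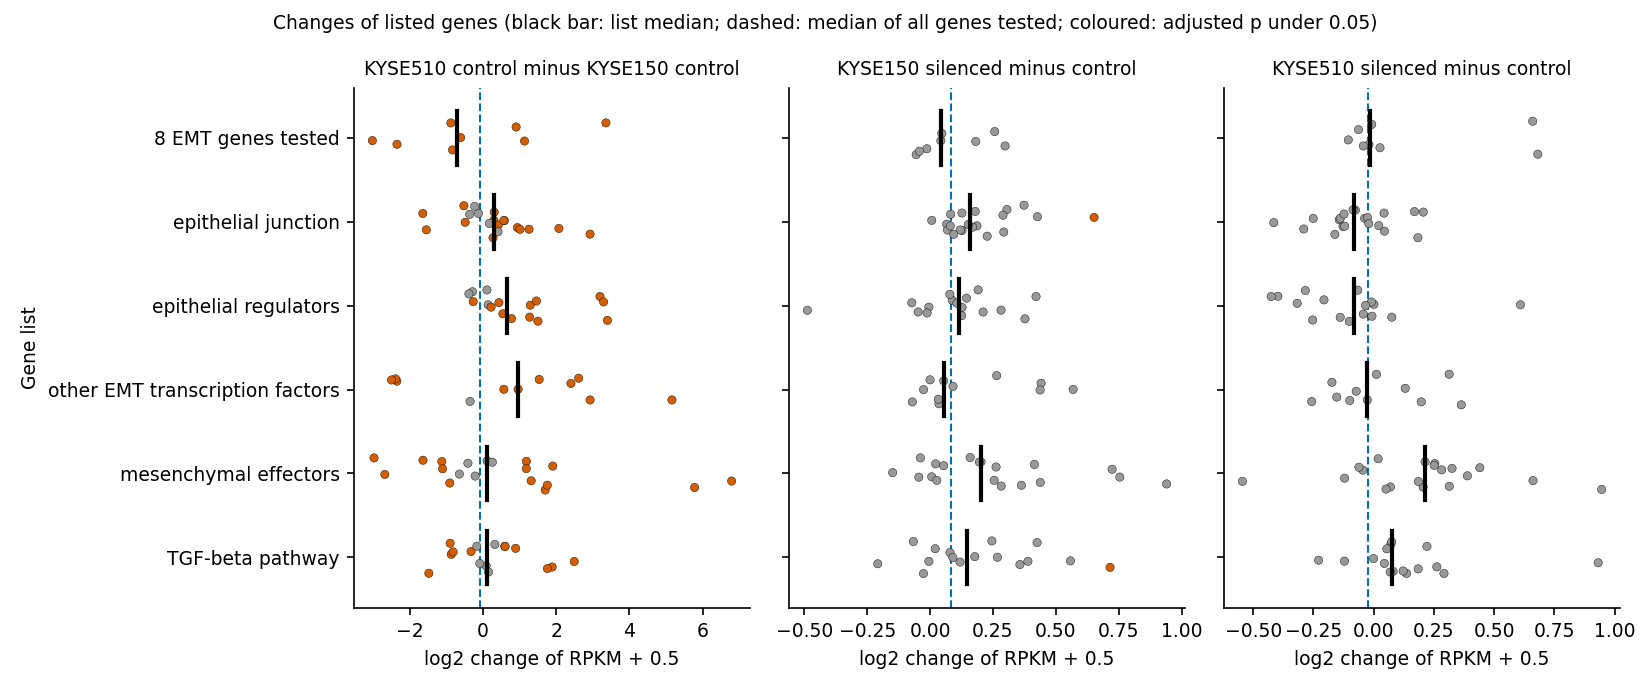
Log2 change of RPKM + 0.5 of each tested gene in the 8 transition genes and 5 lists, between control lines (left) and with silencing in KYSE150 (middle) and KYSE510 (right); black bars are list medians, dashed lines the median of all genes tested, and colour marks a limma adjusted p under 0.05. Between lines most points are coloured on both sides of 0, while with silencing NECTIN1 and TGFBR3 in KYSE150 are the coloured points.

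With silencing, 1 of 20 junction genes, 1 of 16 TGF-beta genes and 0 genes of the other lists (16, 11 and 19 tested) passed the threshold in KYSE150, against 0.499% of all genes. In KYSE510, 0 listed genes passed, against 0.0393%. NECTIN1, a junction protein, rose from 8.32, 8.51 and 11.2 RPKM in KYSE150 controls to 13.2, 14.5 and 16.9 in silenced libraries, by 0.65 (SE 0.12; limma adjusted p = 0.0412). TGFBR3, the TGF-beta co-receptor betaglycan, rose from 0.138, 0.157 and 0.152 RPKM to 0.450, 0.668 and 0.588, by 0.72 (SE 0.12; limma adjusted p = 0.0336). Groups did not overlap for either gene, which was so for 19.2% of all genes in KYSE150. Both calls stood near the threshold: leaving out any of 10 libraries took NECTIN1 over it, with KYSE150 control replicate 3 and KYSE510 control replicate 1 as the exceptions. NECTIN1 also lost it with no filter (adjusted p = 0.061) and with the 6 KYSE150 libraries alone (0.249). TGFBR3 lost its call after median centring (adjusted p = 0.0579), quantile normalization (0.0865), with the 6 KYSE150 libraries alone (0.113), and without KYSE150 control replicates 1 or 2, KYSE150 silenced replicates 2 or 3, KYSE510 control replicate 3 or KYSE510 silenced replicates 1 or 3. With a library left out, the highest adjusted p was 0.164 for NECTIN1 and 0.143 for TGFBR3. Among control libraries TGFBR3 reached 0.5 RPKM only in KYSE510 replicate 2 (0.618), so it passed the filter through silenced libraries. Its adjusted p values, and the counts of silencing calls that include it, are therefore a description. Averaged over lines, TGFBR3 (0.49, SE 0.09; limma adjusted p = 0.0345) and TGFBR1, the signalling receptor kinase (0.42, SE 0.08; limma adjusted p = 0.0383), rose, 2 of 16 TGF-beta genes against 0.539% of all genes, and 0 genes of the other lists passed. With no filter their adjusted p was 0.0537 and 0.0629, and that of TGFBR3 was 0.0512 after quantile normalization. TGFBR3 kept its call without KYSE150 control replicate 3, KYSE150 silenced replicate 1 or KYSE510 control replicate 2, and without any of the other 9 libraries its adjusted p was 0.0755 to 0.105. TGFBR1 stood at 4.004, 3.27 and 3.81 RPKM in KYSE150 controls and 5.68, 5.14 and 6.18 in silenced libraries, and at 2.70, 3.19 and 2.65 against 3.20, 3.90 and 3.70 in KYSE510. Without KYSE150 control replicate 3 TGFBR1 kept its call, and without any of the other 11 libraries its adjusted p was 0.0507 to 0.109.

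The replicate block raised the counts of listed genes in KYSE150. Higher with silencing were 3 of 20 junction genes, 1 of 16 epithelial regulators, 0 of 11 other transcription factors, 6 of 19 mesenchymal effectors and 4 of 16 TGF-beta genes, and 0 were lower in any list (limma adjusted p under 0.05, against 6.70% of all genes). TNC, the matrix protein tenascin-C, had the largest change: it rose in the blocked fit by 0.94 (SE 0.10; limma adjusted p = 0.0136), from 6.31, 3.003 and 7.63 RPKM to 14.7, 6.23 and 12.9. CTNNB1 (beta-catenin), JUP (plakoglobin), the protease inhibitor SPINT2, LGALS1 (galectin-1), PLAU, TGFBR1 and TGFBR2 were also among them. In KYSE510 the blocked fit called 0 listed genes. For the mean over lines it called 2 junction genes (NECTIN1 and CTNNB1), 1 epithelial regulator (EHF), 0 other transcription factors, 3 mesenchymal effectors (TNC, PLAU and CD44) and 3 TGF-beta genes (PMEPA1, TGFBR3 and TGFBR1), all higher with silencing, against 2.74% of all genes. List medians in KYSE150 were 0.16 for junction genes, 0.12 for epithelial regulators, 0.05 for other transcription factors, 0.20 for mesenchymal effectors and 0.15 for TGF-beta genes, against 0.08 for all genes. In KYSE510 they were -0.08, -0.08, -0.03, 0.21 and 0.08, against -0.02. Of the 20 junction genes 20 had a positive log2 change in KYSE150, against 11777 of all 17823 genes tested. After median centring 11 of the 20 were positive, against 7317 of the 17823, so the sign of small changes in this line depended on the scaling.

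The genes whose levels followed CDH1 and VIM most closely were taken from those with at least 1 RPKM in every library, by Pearson correlation over the 12 libraries after the mean of each line was subtracted. For CDH1 these were RP11-354M1.2 (r = 0.926), MET (0.897), which encodes the receptor of hepatocyte growth factor, and ZNF106 (0.883), the highest among 11212 genes. RP11-354M1.2 shares 347 exon bases with CDH1 on the opposite strand, so the same reads may stand behind both. For VIM they were UBE2J2 (0.916), ACBD6 (0.913) and SCAF1 (0.912) among 11213 genes, with VIM at 0.0323 RPKM or less in each KYSE510 library. Treatment, depth and replicate number vary over these libraries for all genes alike, and their part in such correlations was not tested. The values, the highest of many, are a description.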

How the data were processed

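Total RNA of 12 libraries was sequenced. The authors deposited RPKM per gene with exon positions; per the submitters' processing notes HISAT2, DESeq and GRCh38 were used, with versions and roles not given in the sources used here. Every value was a whole multiple of what 1 read is worth (100.0% of values, tolerance 0.1 reads), so reads were recovered for intervals (exact, 95%) and a voom alternative. The lowest chi-square per gene between replicates was 10.3, so none was counted as a copy. The members and gene lists were chosen with earlier results of these data known. Named genes are the 10 members, HCP5, up to 3 genes a direction past the threshold in each list, and the 3 genes most like CDH1 and VIM.

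RPKM was analysed as log2(RPKM + 0.5), which understates changes of low genes, for 17823 genes with at least 0.5 in 3 libraries. limma 3.58.1 (R 4.3.3; trend, Benjamini-Hochberg over all genes, threshold 0.05) fitted 4 group means to all 12 libraries, and was tested on simulated data. Permutation tests were exact and two-sided. Deviations of same-numbered control and silenced libraries correlated at 0.147 to 0.415 in 6 of 6 pairs, and of other-numbered ones at -0.385 to 0.184, so the number (from the titles) was taken to pair libraries within a line, and a fit with it as a block stands beside the main one where it changes a call or count. PRRX1, GSC, CDH11 and CD3D were not analysed here. Values of 2 further listed genes are not reported here.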

Additional observations from a re-analysis of the deposited data

How the results depend on the processing

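Each fit was repeated under 10 other settings (9 for the control lines and for the mean and difference over lines) and with each of the 12 libraries left out. The count of transition genes past the threshold stayed at 0 for silencing in each line, except that the replicate block called 1 (FN1) for the mean over lines; the block changed no other call among the 8 genes it tested. SNAI1 and ZEB2 were tested only in the fit with no filter. The control-line differences of the 8 genes tested kept direction and call in every fit that tested them, and the sizes for CDH2, TWIST1, VIM and ZEB1 depended on the pseudocount. Since CDH2, TWIST1, VIM and ZEB1 passed the filter through a single line, nothing is to be read from their kept calls. Uncalled silencing changes near 0 turned sign. In KYSE150, TWIST1 was -0.087 after median centring, -0.090 after quantile normalization and -0.073 with voom, and EPCAM -0.083 after centring and -0.064 with voom. In KYSE510, ZEB1 was 0.018 and TWIST1 0.0067 after centring, and EPCAM 0.00053 with voom. With libraries left out, the ranges in KYSE150 were -0.0264 to 0.0015 for CDH2, -0.102 to 0.033 for ZEB1, -0.119 to 0.223 for TWIST1, -0.106 to 0.057 for FN1 and -0.00641 to 0.092 for EPCAM, and in KYSE510 -0.151 to 0.016 for CDH1, -0.232 to 0.023 for CDH2 and -0.029 to 0.011 for ZEB1. The cause was not tested. Over all genes, the 89 calls in KYSE150 ran from 7 (6 libraries compared alone) to 1287 (without KYSE150 control replicate 3), and the 7 in KYSE510 from 0 to 44 (no filter). Calls in KYSE150 split into 67 higher and 22 lower, or 54 and 62 after median centring. Few reads limit VIM, ZEB1, ZEB2, SNAI1, TWIST1 and CDH2 in the line where each is low.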
